A study of Mus musculus with 3 samples.

Results

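The interferon gamma induced GTPases described here are 10 mouse genes chosen by name, out of 22238 genes listed in all 3 RNA-Seq libraries. Guanylate-binding proteins (GBPs) account for 5 of them, Gbp2, Gbp3, Gbp4, Gbp5 and Gbp7, and immunity-related GTPases (IRGs) for the other 5, Irgm1, Irgm2, Igtp, Iigp1 and Tgtp1. The libraries came from female C57BL/6J mice, WT by the sample titles, of 10 to 12 weeks with experimental autoimmune encephalomyelitis (EAE), a model of multiple sclerosis. All mice received myelin oligodendrocyte glycoprotein (MOG) peptide in complete Freund's adjuvant, and 250 ng of pertussis toxin intraperitoneally 2 and 24 h later. At days 14 to 15, bone marrow monocytes were sorted as CD45+ CD11b+ Ly6Chi Ly6G- CD11c- cells. Spinal cord monocytes (cord monocytes) were sorted as CD45+ CD11b+ CD64+ Ly6Chi Ly6G- cells, and monocyte-derived antigen-presenting cells (APCs) of the spinal cord by the same markers with low or no Ly6C. Cells of 13 mice in 2 experiments were pooled for the bone marrow library, and cells of 18 mice in 3 experiments for each spinal cord library. Each population was 1 library, so no difference has a replicate check and no p-value is given. There was no library from mice without EAE, and one label of the APC sample names bone marrow while its title and tissue label name the spinal cord.

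GBPs and IRGs are cell-autonomous defence proteins. Interferon gamma binds a receptor on the cell, JAK kinases pass the signal on, and transcription factors, IRF1 among them, switch on GBP and IRG genes in macrophages and monocytes. GBPs assemble on bacteria and on the vacuoles of parasites and are linked to inflammasome activation. Among the IRGs, the effectors Iigp1 (Irga6) and Tgtp1 (Irgb6) load onto vacuole membranes, while Irgm1, Irgm2 and Igtp (Irgm3) are regulators that reside on the cell's own membranes and hold the effectors inactive there.

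The genes lie in clusters of similar sequence. On GRCm38, with positions from GENCODE M21, the GBPs of chromosome 3 all lie on the plus strand: Gbp5 (ENSMUSG00000105504.4) at chr3:142493978-142522344, Gbp7 (ENSMUSG00000040253.15) at chr3:142530342-142550149, Gbp3 (ENSMUSG00000028268.14) at chr3:142560026-142573209 and Gbp2 (ENSMUSG00000028270.12) at chr3:142620602-142638008. Gbp4 (ENSMUSG00000079363.7) lies on the minus strand at chr5:105115767-105139586, amid other GBPs. Chromosome 11 holds Irgm1 (ENSMUSG00000046879.7) at chr11:48861968-48871683 and Tgtp1 (ENSMUSG00000078922.9) at chr11:48985327-48994172, both on the minus strand. It also holds Igtp (ENSMUSG00000078853.8) at chr11:58199556-58207591 and Irgm2 (ENSMUSG00000069874.7) at chr11:58199618-58222782 on the plus strand, and the annotated spans of Igtp and Irgm2 overlap. 

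The promoters of these genes show the letters that interferon-activated factors are known to bind. RefSeq promoters of GRCm38.p6, from 250 bases before to 50 bases after a start site, were matched by symbol for 8 of the 10 genes, all but Gbp4 and Iigp1. RefSeq start sites need not lie at the outer end of the GENCODE gene. The letters GAAA followed after 2 bases by GAAA again, on either strand, were taken as a match to the interferon-stimulated response element (ISRE-like), which IRF factors bind. The palindrome TTCNNNGAA was taken as a match to the gamma-activated site (GAS-like), an element of interferon gamma responsive promoters. The 60 bases around the ISRE-like match nearest the start site are given below, 5′ to 3′ on the gene's strand, because this match is what the 8 promoters share. Capitals mark ISRE-like and GAS-like matches.
Gbp2, chr3:142620579-142620638, plus strand: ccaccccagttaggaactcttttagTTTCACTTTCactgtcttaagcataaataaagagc
Gbp3, chr3:142559977-142560036, plus strand: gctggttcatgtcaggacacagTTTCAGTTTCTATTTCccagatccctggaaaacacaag
Gbp5, chr3:142496744-142496803, plus strand: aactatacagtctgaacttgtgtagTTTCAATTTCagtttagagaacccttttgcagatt
Gbp7, chr3:142530258-142530317, plus strand: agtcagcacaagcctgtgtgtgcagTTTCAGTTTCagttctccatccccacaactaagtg
Irgm1, chr11:48871421-48871480, minus strand: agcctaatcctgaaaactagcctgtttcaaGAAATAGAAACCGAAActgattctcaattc
Irgm2, chr11:58214888-58214947, plus strand: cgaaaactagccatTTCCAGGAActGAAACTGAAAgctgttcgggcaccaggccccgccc
Igtp, chr11:58199496-58199555, plus strand: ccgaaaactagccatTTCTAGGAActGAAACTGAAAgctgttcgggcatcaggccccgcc
Tgtp1, chr11:48992289-48992348, minus strand: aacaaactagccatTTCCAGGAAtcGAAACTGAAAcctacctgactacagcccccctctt

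All 8 promoters held an ISRE-like match, against 3.44% of the 32851 RefSeq promoters of the same 300 bases. A GAS-like match was also present in 5 of the 8 (Gbp5, Gbp7, Irgm2, Igtp and Tgtp1). Among all RefSeq promoters, 8.30% held a GAS-like match and 0.454% held both. The GBPs carried the ISRE-like letters in the TTTC orientation and the 4 IRGs in the GAAA orientation. In Irgm2, Igtp and Tgtp1 the GAS-like match ended 2 bases before the ISRE-like one, whereas in Gbp5 and Gbp7 the GAS-like matches lay outside the windows shown. Gbp3 and Irgm1 each had a pair of overlapping ISRE-like matches. Gbp3 had 2 promoter entries, of which the first held the matches. The promoters are not independent of each other, since those of Igtp and Irgm2 were identical at 244 of 270 aligned columns (90.4%). A match is a description of the letters, not a measured binding site, and binding was not measured in these samples.

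**Figure D1:**
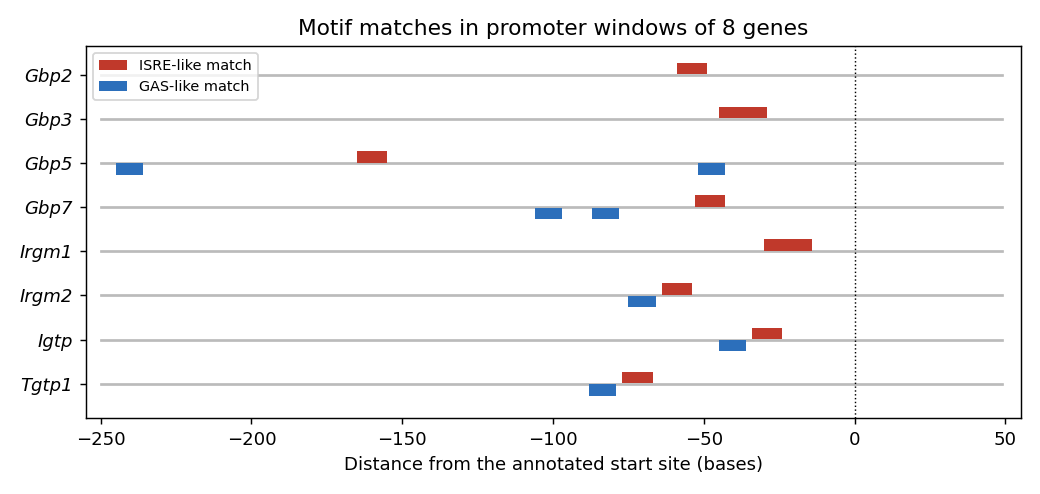
Positions of ISRE-like (red) and GAS-like (blue) matches in the promoter windows of 8 genes, plotted as distance in bases from the annotated start site (dotted line), with grey lines for the window searched. The ISRE-like match lies within 100 bases before the start site in every gene drawn but Gbp5, and it begins just after a GAS-like match in Irgm2, Igtp and Tgtp1.

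Levels are given in TPM, a share of all transcripts that is corrected for transcript length, rescaled to the same sum over the 22238 common genes. These genes held 84.9% and 85.3% of the TPM of the bone marrow and cord monocytes and all of that of the APCs, whose values covered 22242 genes against 54432 for each monocyte library. Rescaling would not correct reads or lengths that were assigned on another set of transcripts. This was not tested for any comparison with APCs. Estimated reads summed to between 27283795 and 33280643 a library. The 5 monocyte markers, among them Ly6c2 and Ccr2, were over 3 TPM in every library, with summed levels of 9854, 8156 and 2110 TPM in bone marrow monocytes, cord monocytes and APCs. Markers of other cells moved too. The 6 microglial markers summed to 12.8, 86.7 and 226 TPM in the same order, with Sall1 and Slc2a5 at 0 reads in bone marrow. The 10 T and NK cell markers summed to 4.10, 68.8 and 115 TPM, with Cd3g, Cd4, Trac, Ncr1 and Ifng at 0 reads in bone marrow. The 6 neutrophil markers summed to 345, 32.3 and 61.4 TPM, the 5 endothelial markers to 17.2, 73.5 and 44.99 TPM and the 6 markers of CNS-associated macrophages to 15.7, 36.8 and 51.1 TPM. The 4 B cell markers summed to 8.70, 3.52 and 3.77 TPM and the 5 markers of conventional dendritic cells to 40.7, 20.9 and 26.99 TPM, both sums highest in bone marrow. The dendritic cell sum hides a split, since 1 of these markers was over 3 TPM in bone marrow monocytes, 3 in cord monocytes and 5 in APCs. The part of these cells in the results below was not tested.

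The GTPases were low to moderate in bone marrow monocytes, highest in cord monocytes and intermediate in APCs. Summed over the 10 genes, the level was 225 TPM in bone marrow monocytes, 2333 TPM in cord monocytes and 1349 TPM in APCs. This order held for each of the 10 genes on the rescaled scale. The median gene stood at 19.9, 146 and 95.9 TPM. In bulk RNA, fewer expressing cells and less RNA per cell cannot be told apart. The GBPs made up 51.4% of the summed level in bone marrow, 70.1% in cord monocytes and 68% in APCs, and Gbp2 alone took 19.8%, 46.3% and 43.4%. Irgm1 took 23.6%, 12.4% and 10.9%, and Irgm2 9.3%, 1.35% and 1.61%.

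**Figure D2:**
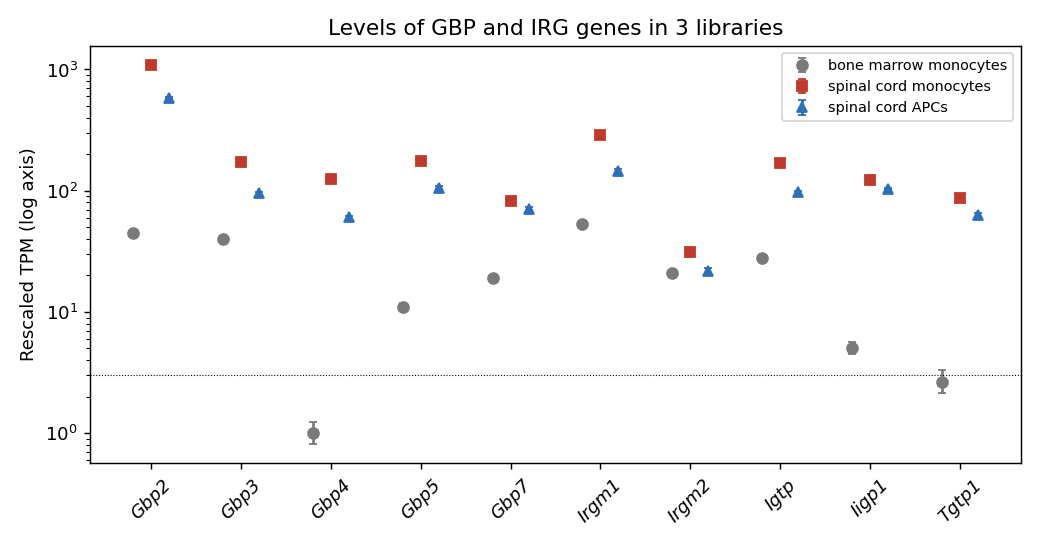
Rescaled TPM on a log axis for each gene in bone marrow monocytes (grey circles), cord monocytes (red squares) and APCs (blue triangles), with 95% Wilson intervals of counting error and a dotted line at 3 TPM. In every gene on this rescaled scale the cord monocytes are the highest library, and only Gbp4 and Tgtp1 in bone marrow lie under the line.

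Between spinal cord and bone marrow monocytes, the comparison describes how the libraries of these tissues differ. Tissue and preparation differed together. Cord cells were digested with collagenase D and DNase I, passed over a Percoll gradient and gated on CD64. Bone marrow was flushed, and its monocytes were enriched with a kit and not gated on CD64. For both cord populations, tissue and preparation therefore cannot be told apart. A gene was called where the 98% interval of its log2 ratio of scaled reads, which covers counting error only, lay beyond a 2-fold difference and its TPM was over 3 in 1 of the 2 libraries. By this rule 9 of the 10 GTPases were called higher in the cord, where 13.8% of the 10072 genes tested were, and none was called lower, where 10.7% were. Their median log2 ratio was 3.65, against -0.15 over all genes tested. The gene not called was Irgm2. With an assumed coefficient of variation of 0.4 between libraries, Gbp3, Gbp7 and Irgm1 were no longer called either.

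Gbp2, which acts on the vacuoles of parasites, was the most abundant of these genes in the cord. It had 44.5 TPM (95% interval 42.7 to 46.5) in bone marrow monocytes, 1081 TPM (1072 to 1091) in cord monocytes and 585 TPM (578 to 592) in APCs, from 2148, 46934 and 27636 reads. The intervals are far apart, and the gene moved from place 3241 by level to 164 and 259 of the 22238 genes. The fold between the monocyte libraries was 30.5 in scaled reads, a log2 ratio of 4.93 (98% interval 4.86 to 5.01). In TPM the cord level was 2430% of the bone marrow level. Of the 10 genes, only Gbp4 had a lower fold in scaled reads than in TPM between these libraries.

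Gbp5, linked to the NLRP3 inflammasome, had 11.1, 176 and 106 TPM in bone marrow monocytes, cord monocytes and APCs. From 674 reads in bone marrow and 9843 in cord monocytes, its log2 ratio was 4.35 (98% interval 4.22 to 4.48), or 20.4-fold.

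Gbp4 had the lowest bone marrow level and the largest ratio of the 10. Its level was 0.999 TPM (95% interval 0.811 to 1.23) in bone marrow monocytes, 125 TPM in cord monocytes and 60.5 TPM in APCs, from 89, 6964 and 4195 reads. It went from place 10387 by level in bone marrow to 1127 in cord monocytes. The log2 ratio was 6.76 (98% interval 6.42 to 7.13), which is 108-fold in reads and place 183 of the 10072 genes tested. Summed with the reads of paralogs that share sequence, the ratio was 5.17. Its mean transcript length also differed, at 4431 bases in bone marrow monocytes, 3161 in cord monocytes and 3576 in APCs. The annotation gives Gbp4 a protein-coding transcript of 4538 bases, a nonsense-mediated-decay transcript of 4509 bases and a retained-intron transcript of 3165 bases, besides shorter ones. Corrected for effective length, the log2 ratio was 7.19.

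Gbp3 and Gbp7 were the GBPs with the smallest ratios. Gbp3 stood at 40.1 TPM in bone marrow, 171 TPM in cord monocytes and 95.1 TPM in APCs, with a log2 ratio of 2.30 (98% interval 2.21 to 2.38) between the monocyte libraries. Gbp7, linked to assembly of the phagocyte oxidase, had 18.9 TPM, 81.5 TPM and 71.2 TPM, with a log2 ratio of 2.46 (2.38 to 2.55). These are 4.91-fold and 5.52-fold differences from 1988 and 1947 bone marrow reads, so counting error is small for both.

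The regulators Irgm1, Igtp and Irgm2 were closer to a 2-fold difference than Gbp2, Gbp4 and Gbp5. Irgm1 and Igtp were farther from it than Gbp3 (2.30) and Gbp7 (2.46). Irgm1 was the most abundant GTPase in bone marrow, at 53.1 TPM (95% interval 50.9 to 55.4), and had 289 TPM in cord monocytes and 147 TPM in APCs. Its reads were 2144, 10558 and 5901, and its log2 ratio between the monocyte libraries was 2.78 (98% interval 2.70 to 2.86). Igtp had 27.7, 168 and 96.8 TPM in the same order, with a log2 ratio of 2.95 (2.83 to 3.06). Irgm2 had 20.9 TPM (19.9 to 22.1), 31.4 TPM (30.04 to 32.8) and 21.7 TPM (20.6 to 22.9). The bone marrow and APC intervals of Irgm2 overlap, while cord monocytes lie above both. Its log2 ratio of scaled reads, 0.92 (98% interval 0.80 to 1.03), spans a 2-fold difference, so the gene was not called. Corrected for effective length, the ratio was 0.83 (0.71 to 0.94), under 2-fold. By the ratio of scaled reads Irgm2 stood at place 1657 of the genes tested, and the other 9 GTPases stood at places 183 to 805.

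The effectors Iigp1 and, by the reads assigned to it, Tgtp1 were scarce in bone marrow. Iigp1 (ENSMUSG00000054072.12), which lies on chromosome 18, had 5.01 TPM (95% interval 4.46 to 5.62) in bone marrow monocytes, 123 TPM in cord monocytes and 103 TPM in APCs, from 288, 6339 and 5908 reads. The log2 ratio between the monocyte libraries was 4.94 (98% interval 4.74 to 5.15), near that of Gbp2. Tgtp1 had 2.67 TPM (2.13 to 3.35), 86.9 TPM and 62.7 TPM, from 74, 3369 and 2533 reads. Its log2 ratio was 5.98 (98% interval 5.60 to 6.39), and 5.26 after correction for an effective length that was 1299 bases in bone marrow and 2000 in cord monocytes. Tgtp1 shares most of its sequence with a neighbour, as described below with its summed value.

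By level, the genes fell in another order in each library. In bone marrow monocytes it ran Irgm1, Gbp2, Gbp3, Igtp, Irgm2, Gbp7, Gbp5, Iigp1, Tgtp1 and Gbp4, and no 95% interval overlapped that of its neighbour. In cord monocytes Gbp2 and Irgm1 led, followed by Gbp5, Gbp3 and Igtp, by Gbp4 and Iigp1, and by Tgtp1, Gbp7 and Irgm2. Neighbours among Gbp5, Gbp3 and Igtp could not be told apart by counting error there, nor could Gbp4 and Iigp1. In APCs the order was Gbp2, Irgm1, Gbp5, Iigp1, Igtp, Gbp3, Gbp7, Tgtp1, Gbp4 and Irgm2, with overlaps between Gbp5 and Iigp1, between Igtp and Gbp3, and between Tgtp1 and Gbp4. The highest level was 53.2 times the lowest in bone marrow, 34.4 times in cord monocytes and 26.9 times in APCs.

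Between APCs and cord monocytes, the comparison addresses what differs between pools of cord cells sorted at the same days by Ly6C level. None of the 10 GTPases was called, where 1.93% of the 9734 genes tested were called higher and 1.70% lower, and none passed a plain 2-fold difference in scaled reads either. All 10 were nonetheless lower in APCs on this scale, each with a 98% interval below a log2 ratio of 0, as was the case for 36.5% of genes tested. Their median log2 ratio was -0.78, against -0.04 over all genes tested.

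The size of this difference was uneven. Irgm1 lay on the 2-fold boundary, with a log2 ratio of -1.0 (98% interval -1.05 to -0.94), and stood at place 305 from the lowest of the 9734 genes. Gbp2 followed with -0.92 (-0.95 to -0.90), and Gbp4 with -0.89 (-0.95 to -0.82). Igtp, Gbp5 and Gbp3 lay at -0.82, -0.80 and -0.76, and Irgm2 and Tgtp1 both at -0.57. The smallest differences were those of Iigp1, at -0.26 (-0.32 to -0.20), and Gbp7, at -0.21 (-0.27 to -0.16). In TPM, the APC level was 48.6% of the cord monocyte level for Gbp4, 50.9% for Irgm1 and 54.1% for Gbp2, but 83.9% for Iigp1 and 87.4% for Gbp7. In TPM as deposited, without rescaling to common genes, Gbp7 was at 69.5 in cord monocytes and 71.2 in APCs, so its direction turned.

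**Figure D3:**
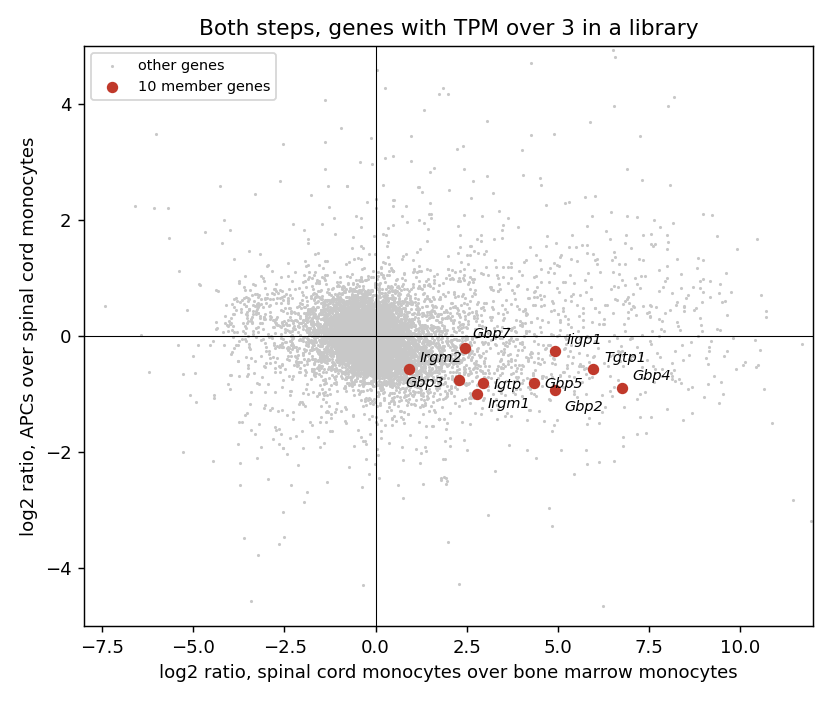
Log2 ratio of APCs over cord monocytes (y axis) against log2 ratio of spinal cord over bone marrow monocytes (x axis), with the 10 GTPases in red and other genes with over 3 TPM in a library in grey. The axes leave out 20 of the 10307 genes. On scaled reads the GTPases all lie to the right of 0 and below 0 (Gbp7 turns in deposited TPM), with Irgm2 nearest the bulk of the genes. Both ratios contain the cord monocyte library.

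Against bone marrow monocytes, the APCs were also high. Of the GTPases 9 were called higher, where 14.0% of 10190 genes tested were, and none lower, where 11.8% were. The log2 ratios ran from 1.54 in Gbp3 and 1.79 in Irgm1 to 5.41 in Tgtp1 and 5.87 in Gbp4. Irgm2 was not called, at 0.35 (98% interval 0.22 to 0.47). The median of the 10 was 2.90, against -0.17 over all genes tested. With an assumed coefficient of variation of 0.2 between libraries Gbp3 and Irgm1 were no longer called, and with 0.4 only 5 genes were. These ratios share a library with each of the other comparisons and add no independent measurement.

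**Figure D4:**
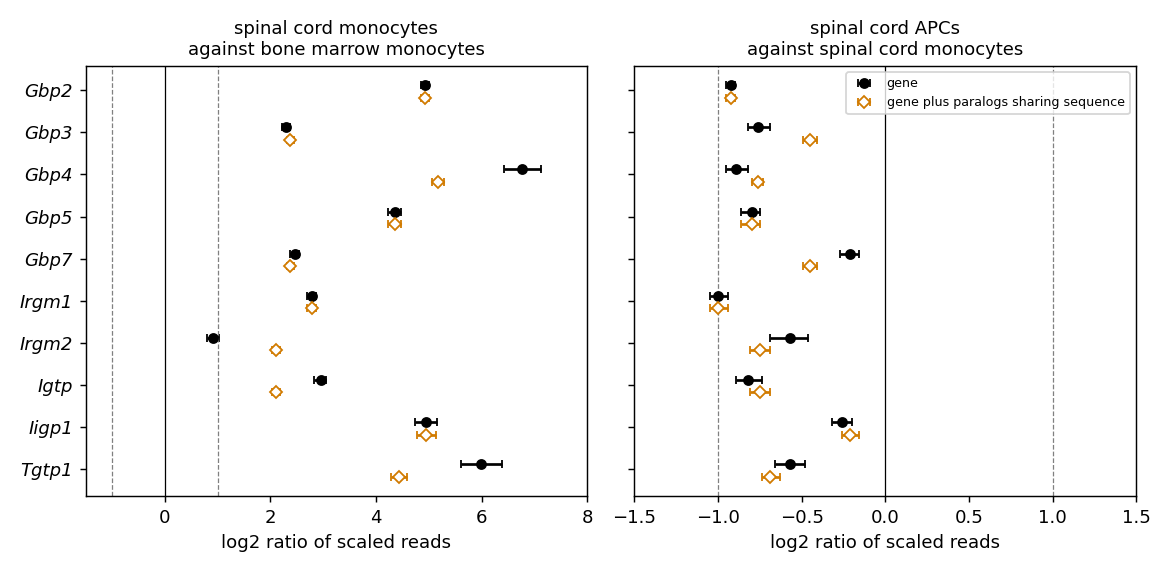
Log2 ratios of scaled reads with 98% intervals of counting error for each gene (black circles) and for its reads summed with those of paralogs that share sequence (orange diamonds), for the 2 comparisons named above the panels. Only paralogs of the 2 families and their relatives were summed. Dashed lines mark 2-fold. On the left 9 of 10 black circles lie to the right of the 2-fold line with their intervals, and on the right none has its interval beyond it.

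Read sharing between paralogs could move values between these genes. Salmon assigns a read that fits several transcripts by its model, and the intervals above do not cover that step. Sharing was measured as the part of a gene's 50-base words, the length of 1 read, that also occur in transcripts of another gene in GENCODE M21. It was 0.3% for Irgm1, 1.4% for Gbp5, 1.7% for Iigp1, 2.0% for Gbp2 and 3.8% for Gbp3. Gbp4, with 7.7%, shared words with Gbp6, Gbp8, Gbp9, Gbp10 and Gbp11, and Gbp7, with 12.7%, mainly with the gene model Gm43802. Igtp shared 11.8% of its words with Irgm2, and Irgm2 7.8% in all.

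Among the 10 genes Tgtp1 stood apart, since 81.2% of its words were shared and 2480 of 3122 were found in Tgtp2. Tgtp1 had 13.5% of the reads of this pair in bone marrow monocytes, 37.2% in cord monocytes and 40.4% in APCs. The level of Tgtp1 alone is therefore uncertain. Reads summed over Tgtp1, Tgtp2 and Gm12185 were 600, 9293 and 6438, with a log2 ratio of 4.43 (98% interval 4.29 to 4.58) between the monocyte libraries and -0.69 between APCs and cord monocytes. The sum was thus also called higher in cord monocytes, with a smaller ratio than the 5.98 of Tgtp1.

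Summing paralogs also moved Gbp4 and Irgm2, and the other genes less. Gbp4 with its 5 relatives on chromosome 5 gave 967, 24875 and 16347 reads and a log2 ratio of 5.17 (98% interval 5.06 to 5.28) between the monocyte libraries, against 6.76 for Gbp4 alone. Gbp3 and Gbp7 together gave 2.38, and Gbp2 with Gbp2b 4.93. Iigp1 with Gm4951 gave 4.95. Igtp and Irgm2 summed to 2455, 7566 and 5019 reads and a ratio of 2.11 (2.03 to 2.18), a value set mostly by Igtp, which had 41.5%, 74.3% and 71.0% of these reads. Every sum was called higher in cord monocytes and none was called between APCs and cord monocytes. The sums took in only genes of the 2 families and their relatives. Among the partners left out were Gm43802, with 588 words shared with Gbp7, and Gm43302, with 237 shared with Gbp4. Sharing of reads with those partners was not tested.

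**Figure D5:**
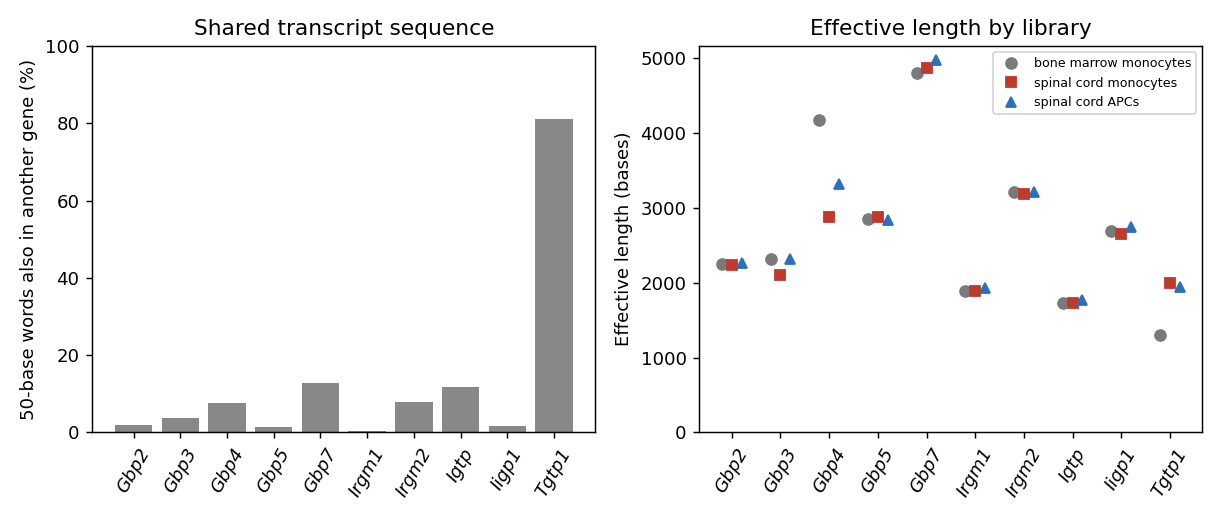
Left, the percent of each gene's 50-base transcript words that also occur in another gene. Right, the effective transcript length in bases in bone marrow monocytes (grey circles), cord monocytes (red squares) and APCs (blue triangles). Tgtp1 has by far the largest shared part of the 10, at 81.2%, and Gbp4 and Tgtp1 have lengths that differ most between libraries.

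Of 18 further genes of the GBP and IRG families or their relatives, 16 were listed in all libraries. Between the monocyte libraries 9 of 14 tested were called higher in the cord and none lower, with a median log2 ratio of 4.01. Over all genes tested the shares were 13.8% and 10.7%. Gbp6 had 6.21, 191 and 127 TPM in bone marrow monocytes, cord monocytes and APCs and a log2 ratio of 5.08. Gbp9 had 400, 4476 and 2656 reads and a ratio of 3.96, and Gbp8 had 10, 1730 and 1502 reads. Gbp10 had 0 reads in bone marrow and 166 and 105 in the cord libraries, and Gbp2b 0, 63 and 39. Gm4951, a neighbour of Iigp1, had 58, 1334 and 1487 reads. Relatives that were not called included 9930111J21Rik1 and 9930111J21Rik2, with ratios of -0.72 and -0.93, and Gvin1, a giant interferon-inducible GTPase, with 0.33. Shared words made up 99.2% of those of Gvin1, 84.1% of Gbp10 and 70.7% of Gbp6. For 9930111J21Rik1 and 9930111J21Rik2 the shares were 82.9% and 59.2%, so the single values of all these genes are uncertain. The share was smaller for Gbp8 (18.1%), Gbp9 (8.0%) and Gm4951 (4.6%). Between APCs and cord monocytes the median of 13 tested was -0.70, and of these only Gbp11 was called, as lower. Ifi47, an IRG listed below among the interferon gamma targets, is not among the 18. It was called lower in this comparison, at -1.79 (98% interval -1.87 to -1.72). With effective length taken into account Gbp11 was not called and Gbp10, Tgtp2 and Gm12185 were called lower. In APCs the lengths of Gbp11 (1329 bases), Gbp10 (3528) and Tgtp2 (2810) each equalled that of a single annotated coding transcript. In cord monocytes they were 2692, 1077 and 2031 bases. Whether these length differences came from the cells or from the other gene set of the APC values was not tested.

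The signalling genes upstream of these GTPases gave mixed calls. Of 12 signalling genes, 5 were called higher in cord than in bone marrow monocytes and 1 lower, with a median log2 ratio of 0.55. Among all genes tested, 13.8% were called higher and 10.7% lower. Ifng itself, the cytokine gene and a marker of T and NK cells, had 0 reads in bone marrow monocytes, 129 in cord monocytes and 443 in APCs. Ifngr1, the ligand-binding receptor chain, was called lower, with 363, 130 and 129 TPM and a log2 ratio of -1.20, and Ifngr2 stood at -0.06. Irf1 had 90.5, 650 and 429 TPM, with ratios of 3.01 between the monocyte libraries and -0.85 between APCs and cord monocytes, the latter -0.52 after length correction. Socs1, the feedback inhibitor, had 28, 1125 and 627 reads, with ratios of 5.78 and -1.0. Jak2 (1.97) and Stat2 (1.57) were the other genes called higher, and Jak1 stood at -0.02. Of the 12, Ifng alone was called between APCs and cord monocytes on reads, with a ratio of 1.62 (98% interval 1.29 to 1.96), and after length correction Stat2 was also called, as lower. In TPM, Irf1, Socs1, Jak2, Stat2, Ifnar1 and Irf8 were highest in cord monocytes like the 10 GTPases, Irf8 narrowly (222, 227 and 176 TPM). Ifng and Ifnar2 were highest in APCs, and Ifngr1, Ifngr2, Jak1 and Irf9 in bone marrow monocytes.

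Other interferon gamma targets were mostly higher in the cord as well. Of 17 tested, 15 were called higher in cord than in bone marrow monocytes, where 13.8% of all genes tested were. None was called lower, where 10.7% were, and the median log2 ratio was 4.19. After length correction 13 were called higher, without Psmb8 and Psmb9. The ratios ran from 0.80 for Psmb10, a proteasome subunit, to 11.70 for Nos2, the inducible nitric oxide synthase, with 9.12 for Acod1, the itaconate-forming enzyme. Between APCs and cord monocytes 3 were called lower (Cxcl10, Cxcl11 and Ifi47), where 1.70% of all genes tested were, with a median of -0.54. With length correction 4 were, as Nlrc5 was added. Ciita, the activator of MHC class II genes, was at 0.73 in that comparison.

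Genes known for type I interferon showed a different count. All but Cmpk2 of the 19 were called higher in cord than in bone marrow monocytes, where 13.8% of all genes tested were. The median log2 ratio was 2.78, with values up to 4.99 for Rsad2. Between APCs and cord monocytes 12 of 19 were called lower, where 1.70% of all genes tested were. The median of the 19 was -1.18, with values from -1.73 for Mx1 and -1.68 for Cmpk2 to -0.21 for Ifi44. After length correction 8 were called lower. For the 10 GTPases the corresponding count was 0 with either scale, and the difference between the lists was not tested.

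The genes that load GTPases onto membranes or act after them formed another list. Of 15 genes, 3 were called higher in cord than in bone marrow monocytes, where 13.8% of all genes tested were, and the median log2 ratio was 0.37. They were Nlrp3 (2.54) and Casp4 (1.80), of the inflammasome pathways, and Gabarapl1 (1.60), of the ATG8 family that directs IRGs and GBPs to vacuoles. The lowest were Atg7 (-0.50) and Atg3 (-0.31), which conjugate ATG8 proteins. None was called between APCs and cord monocytes, where the median was -0.36.

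Several genes outside these families had a like pattern over the 3 libraries. Among 5062 genes with over 30 TPM in a library, the genes nearest to the median pair of log2 ratios of the GTPases (3.65 and -0.78) were Slc25a37, a mitochondrial iron importer, Rnf19b, a ubiquitin ligase, Srgn, a granule proteoglycan, Rtp4, an interferon-induced chaperone, and Nfkbia, the inhibitor of NF-kB. Slc25a37 lay at a distance of 0.074 in log2 ratios of scaled reads, which are not corrected for length, with 7.11, 81.2 and 66.4 TPM. In TPM its difference between APCs and cord monocytes was smaller than in scaled reads. Within a distance of 0.5 there were 33 genes and none of the 10 GTPases, whose own median distance was 1.33. A likeness over 3 libraries is a description of levels.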

How the data were processed

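RNA of 3 sorted populations was sequenced as 50 bp paired-end reads, 1 pooled library each. The authors ran SALMON on GENCODE vM22 and pooled the transcripts of each gene. The submitters' processing notes name Salmon 0.14.1 and mm10. They deposited TPM, normalized for effective length and library size, estimated counts of reads, which are not normalized, and effective lengths. APC values cover another set of genes than monocyte values, for a reason not given in the sources used here. The 10 genes and all gene lists were chosen with earlier results of these data known.

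Estimated counts of 22238 common genes, rounded, were scaled by median-of-ratios size factors. The log2 ratio is the median of a gamma posterior of reads plus 1, with percentiles 1 and 99 as a 98% interval, after the definition of GFold, which was not run. A gene was tested where rescaled TPM was over 3 in 1 of the 2 libraries, and called where the interval lay beyond 2-fold. The code was tested on simulated data. TPM has a 95% Wilson interval, and all intervals cover counting error only, since PCR copies are not independent molecules. Symbols and positions came from GENCODE M21 (same identifier and version for 99.0% of common genes).

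The genes named are the 10 members, their relatives, 12 signalling genes, the extremes and called genes of the other lists, and the 5 genes nearest in pattern. The signalling list as fixed held 1 more gene, which is not reported here, so its counts and median are over 12 genes. Alternatives were scaling by total reads or TMM factors, division by effective length, a TPM minimum of 4 or no minimum, an assumed coefficient of variation of 0.2 or 0.4, a bound of 0.001, 0.5 reads added, a plain 2-fold difference, deposited TPM with a pseudocount of 1 or 0.1, paralog sums, and 2 other gene sets. The software was Python 3.11.15 with scipy 1.17.1, pandas 2.3.3, numpy 2.4.6 and matplotlib 3.10.9, and edgeR 4.0.16 in R 4.3.3, the latter for TMM factors only.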

Additional observations from a re-analysis of the deposited data

Results flagged for a closer look

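Gm12250, which encodes the IRG effector Irgb10, had a signal outside the comparisons. GENCODE M21 lists it as a processed pseudogene on chromosome 11 from 58187739 to 58189012 of GRCm38, next to Igtp, and the APC values do not include it. As deposited, it had 83.3 TPM in spinal cord monocytes, from 1888 reads, and 26.2 TPM in bone marrow monocytes, from 670 reads. A count of 3 reads would be 0.132 TPM in spinal cord monocytes. Its level in APCs was not analysed here.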

How the results depend on the processing

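No paired analysis was possible because each population was 1 library, and for the same reason no replicate could be left out. Over 15 other settings, 417 of 430 values of single GTPases kept their call and direction. Gbp7, which was not called, changed sign between APCs and spinal cord monocytes in deposited TPM, to 0.03 with either pseudocount. An assumed coefficient of variation of 0.4 between libraries lowered the number called higher from 9 to 5 between APCs and bone marrow monocytes, without Gbp3, Gbp7, Irgm1 and Igtp, and lost Gbp3, Gbp7 and Irgm1 between the monocyte libraries. With 0.2, Gbp3 and Irgm1 were lost between APCs and bone marrow monocytes. Irgm2 became called only when summed with Igtp, at log2 ratios of 2.11 and 1.36 against bone marrow. The median of the 10 ranged from 3.21 to 3.65 between the monocyte libraries, from -0.78 to -0.53 between APCs and spinal cord monocytes, and from 2.72 to 2.91 between APCs and bone marrow monocytes. Scaling by total reads shifted every log2 ratio by -0.18, 0.05 and -0.14 in these comparisons.

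Counts over all genes moved more. Between the monocyte libraries 1386 were called higher and 1073 lower, but 2623 higher with no TPM threshold, 910 and 445 with a coefficient of variation of 0.2, 622 and 218 with 0.4, and 1344 and 2058 in deposited TPM with a pseudocount of 0.1. Between APCs and spinal cord monocytes 188 were higher and 165 lower, against 385 and 292, 83 and 35, 41 and 14, and 567 and 348 under the same settings. There were 320 lower with effective length and 326 and 302 at a plain 2-fold difference. Between APCs and bone marrow monocytes 1426 and 1199 became 2870 higher with no threshold, 714 and 222 with 0.4, 488 lower with 0.2 and 1867 lower in deposited TPM.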
